A study of Mus musculus with 15 samples.

Results

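Mast cell genes were followed here as 9 gene names, all matched in the deposited tables among 52526 genes: Cpa3, Mcpt4, Cma1, Tpsb2, Kit, Fcer1a, Ms4a2, Hdc and Hpgds. They were chosen by name, as genes known to mark mast cells, and not by their values. The tissue was the left 4th mammary tissue of 15 female nude mice (nu/nu, Crl:NU-Foxn1nu), all of 1 experiment, with 1 library per mouse. Mice of the vehicle group (8 mice) carried pumps under the skin with PEG300 and 1% DMSO, and mice of the BDE-47 group (7 mice) carried pumps with BDE-47, a polybrominated diphenyl ether flame retardant, in the same vehicle, each for 16 weeks. All 15 mice were athymic and so lacked mature T cells, while innate cells such as mast cells remain in this strain. The study also implanted xenografts in some mice; which mice these were is not in the labels, and this was not used.

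Mast cells are long-lived cells of the innate immune system that mature in tissue, in skin, mucosa and the connective tissue and fat around vessels, nerves and ducts, the mammary gland included. They grow under KIT, the receptor for stem cell factor, and carry the high-affinity IgE receptor, whose alpha chain (Fcer1a) binds IgE and whose beta chain (Ms4a2) amplifies the signal. Their granules hold histamine, made by histidine decarboxylase (Hdc), and proteases bound to heparin: carboxypeptidase A3 (Cpa3), the chymases MCPT4 and CMA1 (also called MCPT5), and the tryptase MCPT6, encoded by Tpsb2. Hematopoietic prostaglandin D synthase (Hpgds) makes prostaglandin D2. Kit is also a known marker of luminal progenitor cells of the mammary epithelium, and Hdc is also made by basophils and by other myeloid cells.

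The proximal promoters of 4 members are shown because they are the windows from which the granule protease genes and Kit start, and they differ in their letters. Each runs from 250 bases before to 50 bases after the start of a RefSeq transcript (GRCm38.p6, 5′ to 3′ on the gene's strand), from which distances are counted; for Cpa3 this start lies 28 bases inside the boundary of the gene, and for the other 3 at the boundary. Capitals mark GATA words, spelled AGATAA or, in a variant form, TGATAA. They also mark the word of the TATA box, spelled TATAAA. Both were searched on either strand, and a match on the opposite strand is printed as the reverse complement.
Cpa3, chr3:20242132-20242431, minus strand: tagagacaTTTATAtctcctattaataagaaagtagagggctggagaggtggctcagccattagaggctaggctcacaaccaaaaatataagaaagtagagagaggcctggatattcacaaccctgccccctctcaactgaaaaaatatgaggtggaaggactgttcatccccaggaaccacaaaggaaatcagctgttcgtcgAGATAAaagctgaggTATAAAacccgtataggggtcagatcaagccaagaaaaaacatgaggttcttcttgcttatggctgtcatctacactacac
Mcpt4, chr14:56062261-56062560, minus strand: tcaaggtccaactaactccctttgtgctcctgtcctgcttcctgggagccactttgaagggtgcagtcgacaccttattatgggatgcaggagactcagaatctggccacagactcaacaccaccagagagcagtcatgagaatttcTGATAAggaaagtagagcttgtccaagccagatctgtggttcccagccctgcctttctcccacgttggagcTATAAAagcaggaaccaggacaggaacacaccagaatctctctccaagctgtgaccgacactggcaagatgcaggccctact
Cma1, chr14:55944626-55944925, minus strand: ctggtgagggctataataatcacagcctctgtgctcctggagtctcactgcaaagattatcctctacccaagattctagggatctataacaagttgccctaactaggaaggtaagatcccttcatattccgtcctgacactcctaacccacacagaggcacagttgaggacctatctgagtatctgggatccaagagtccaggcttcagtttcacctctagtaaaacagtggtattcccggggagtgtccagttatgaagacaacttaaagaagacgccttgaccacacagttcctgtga
Kit, chr5:75574737-75575036, plus strand: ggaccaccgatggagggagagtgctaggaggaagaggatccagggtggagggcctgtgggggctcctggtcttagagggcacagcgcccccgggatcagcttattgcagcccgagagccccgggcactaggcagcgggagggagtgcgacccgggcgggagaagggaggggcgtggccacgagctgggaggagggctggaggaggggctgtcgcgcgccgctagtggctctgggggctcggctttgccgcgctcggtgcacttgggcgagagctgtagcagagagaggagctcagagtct

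The Cpa3 window held AGATAA at 46 bases and TATAAA at 31 bases before the start, and a TATAAA on the opposite strand at 242 bases before it. Mcpt4 held TGATAA at 103 bases and TATAAA at 32 bases before its start. In the windows of Cma1 and Kit none of these spellings was found, and other spellings of a GATA word were not searched in any window. Kit had 2 promoter entries, of which only the first was read. Of 32851 promoters of the same length, 18.6% held a GATA word and 13.6% held TATAAA, so a match in 1 gene is a description of these letters and no site. By base composition the Kit window stood apart, with 69% G and C against 43.3% in Cpa3, 51.7% in Mcpt4, 47% in Cma1 and a mean of 53.8% over all promoters. Among the other members, the Ms4a2 window held 3 GATA words and that of Fcer1a held 1, and in the Hdc and Hpgds windows, whose starts lie 5347 and 251 bases inside the gene boundary, no GATA word and no TATAAA were found. Tpsb2 (chr17:25366308-25368096, GRCm38.p6) had no entry in the promoter table.

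All values are log2(CPM), where CPM is the read count scaled to the mapped reads of the library, and each gene under 1 CPM is listed at 0. A 0 therefore stands for a level under the floor and gives no measured level, and at depths of 10.06 to 19.58 M reads per mouse the floor corresponds to 10.06 to 19.58 reads. The depth ranges of the groups overlapped, at 11.97 to 16.51 M in vehicle and 10.06 to 19.58 M in BDE-47. Of the genes with a mean of 10 to 20 CPM, the range in which Mcpt4, Cma1, Tpsb2 and Hdc fall, 28.52% of all values were listed at 0, so that a single 0 was common at this level. Because single mice are at 0, the values of each mouse are given and no mean with an SD. Libraries of 3 mice stood apart in their tissue makeup. Vehicle replicates 6 and 8 held B cell genes (mean log2(CPM) of 8 genes 6.20 and 6.73, against at most 0.55 in the other 13 mice), and BDE-47 replicate 6 held skeletal muscle genes (mean of 5 genes 13.4, against at most 4.19). Luminal epithelial genes were low in these same 3 mice, with a mean over 8 genes of 1.77, 2.84 and 3.22, against 5.28 to 7.60 in the other 12. In bulk tissue, fewer cells of a type and less RNA per cell cannot be told apart.

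**Figure D1:**
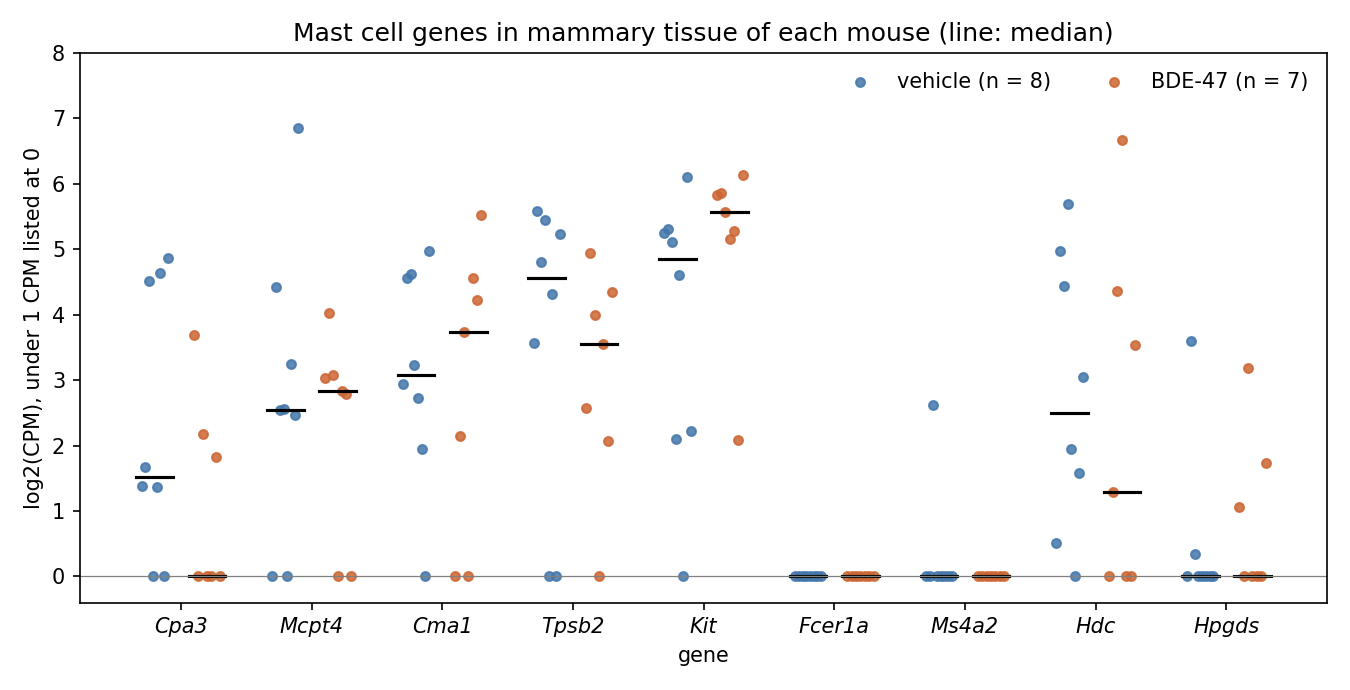
The plot gives log2(CPM) (vertical axis) of the 9 mast cell genes (horizontal axis) in each vehicle mouse (blue, n = 8) and each BDE-47 mouse (orange, n = 7); lines are group medians and genes under 1 CPM lie at 0. The groups overlap for every gene, Fcer1a is at 0 in all 15 mice, and points at 0 occur for all 9 genes in vehicle and for 8 of them in BDE-47, Kit being the exception.

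At least 1 protease member was above the floor in 14 of 15 mice, but no member and no other gene differed between groups past the threshold. In limma, 0 of 9511 genes tested had an adjusted p under 0.05 (0% called, lowest adjusted p 0.982), and at an unadjusted p under 0.05 there were 184 genes higher in BDE-47 (1.93%) and 259 lower (2.72%), with no member among them. Of the 9 members, 6 passed the filter of 1 CPM in at least 7 mice (Cpa3, Mcpt4, Cma1, Tpsb2, Kit and Hdc), and 5 of these 6 had a lower mean log2(CPM) in BDE-47, against 50.9% of all genes tested with a lower mean and 49.1% with a higher one. Without vehicle replicates 6 and 8, 4 of the 6 had a lower mean, against 53.4% of all genes. By size alone, Kit was more than 2-fold higher in BDE-47 and Cpa3 more than 2-fold lower, against a background of 13% and 13.2% of all genes past that size in each direction. The exact permutation test, run on the 16314 genes above the floor in at least 1 mouse, called 0 genes after adjustment (0%; unadjusted, 1.48% higher and 1.58% lower), and again no member had an unadjusted p under 0.05.

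Cpa3 encodes the carboxypeptidase that trims peptides and venoms released near the cell. Its log2(CPM) in vehicle replicates 1 to 8 was 1.38, 1.67, 4.51, 0, 1.36, 4.63, 0 and 4.86. In BDE-47 replicates 1 to 7 it was 3.69, 0, 2.18, 0, 0, 1.82 and 0. The 3 values over 4 were all in vehicle mice, and a pair of these are the mice with B cell genes, replicates 6 and 8. Cpa3 was above the floor in 6 of 8 vehicle and 3 of 7 BDE-47 mice, which did not pass Fisher's exact test (two-sided, unadjusted p = 0.315; 0.956% of all genes had an unadjusted p under 0.05 by this test, and 0 an adjusted one). The difference in mean log2(CPM), BDE-47 minus vehicle, was −1.20 (SE 0.97, 95% interval −3.16 to 0.75; limma adjusted p = 0.982; exact permutation test, two-sided, unadjusted p = 0.217). Without vehicle replicates 6 and 8 it was −0.39 (limma adjusted p = 0.996). The part of the B cell rich tissue in the Cpa3 difference was not tested.

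MCPT4, 1 of the 2 chymase members, cleaves at aromatic residues and acts on matrix proteins and angiotensin. Mcpt4 in vehicle replicates 1 to 8 was 0, 4.43, 2.54, 2.55, 0, 3.25, 2.47 and 6.86. Across BDE-47 replicates 1 to 7, Mcpt4 was 3.03, 4.03, 3.08, 0, 2.84, 2.79 and 0. A single mouse, vehicle replicate 8, stood far above the rest with 1386 reads, and apart from it the groups covered nearly the same range. The Mcpt4 difference was −0.51 (SE 1.10, 95% interval −2.73 to 1.71; limma adjusted p = 0.994; exact permutation p = 0.644), and without vehicle replicates 6 and 8 its sign turned, to 0.25 (limma adjusted p = 0.997).

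Cma1 was listed in vehicle replicates 1 to 8 at 2.94, 4.55, 4.62, 3.23, 2.73, 1.95, 0 and 4.97. The BDE-47 replicates 1 to 7 had Cma1 values of 0, 2.14, 3.73, 0, 4.56, 4.23 and 5.52. Of the 7 BDE-47 values 6 lay within the vehicle range, and that of BDE-47 replicate 7, the highest of all 15 mice, lay above it. For Cma1 the difference was −0.24 (SE 1.07, 95% interval −2.41 to 1.93; limma adjusted p = 0.994; exact permutation p = 0.810), and its sign turned when the mice were compared by linear CPM (1.74 CPM higher in BDE-47; exact permutation p = 0.817).

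Cma1 and Mcpt4 lie in the mast cell chymase cluster, with gene bodies at chr14:55941451-55944675 and chr14:56059744-56062310 (GRCm38.p6), 115.1 kb apart. Of the genes between them, Cma2, Gm5801, Mcpt1, Mcpt2 and Mcpt9 were matched by name and the pseudogene Mcpt-ps1 was not, and each of the 5 matched genes was listed at 0 in all 15 mice, while Cma1 was above the floor in 12 mice and Mcpt4 in 11. Mcpt1 and Mcpt2 encode the chymases known from mucosal mast cells of the gut, and Mcpt4 and Cma1 those known from connective tissue mast cells. Genes of a cluster of related sequence can share reads, and how the authors' counting treated such reads is not given in the sources used here.

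Tpsb2 encodes a tryptase, stored as a tetramer on heparin, that cleaves after basic residues. In vehicle replicates 1 to 8 Tpsb2 was 3.56, 5.58, 4.80, 5.45, 0, 4.32, 0 and 5.23. Its BDE-47 values in replicates 1 to 7 were 2.58, 4.94, 3.99, 0, 3.55, 2.07 and 4.35. The 4 highest values were 3 in vehicle and 1 in BDE-47, 2 vehicle mice and 1 BDE-47 mouse were at 0, and the ranges overlapped. The difference was −0.55 (SE 1.05, 95% interval −2.66 to 1.56; limma adjusted p = 0.994; exact permutation p = 0.612). Tpsab1, the neighbouring and related tryptase gene, was above the floor in 3 of 8 vehicle and 3 of 7 BDE-47 mice, and all 6 also had Tpsb2. Whether reads were shared by this pair was not tested, so the level of each remains uncertain.

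Taken by mouse, the 4 protease genes were all above the floor in 6 mice, vehicle replicates 2, 3, 6 and 8 and BDE-47 replicates 3 and 6. In BDE-47 replicate 4 all 4 were at 0, at 19.38 M reads, among the deepest libraries. That library also had the fewest genes above 1 CPM, 6932, against 7135 to 12689 in the other mice. The part of this low gene count in the values at 0 was not tested. In BDE-47 replicate 7, Cma1 was at its highest, 5.52, while Cpa3 and Mcpt4 were at 0. Vehicle replicate 7 had Mcpt4 (2.47) as the only protease above the floor, and vehicle replicate 5 had Cpa3 (1.36) and Cma1 (2.73).

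**Figure D2:**
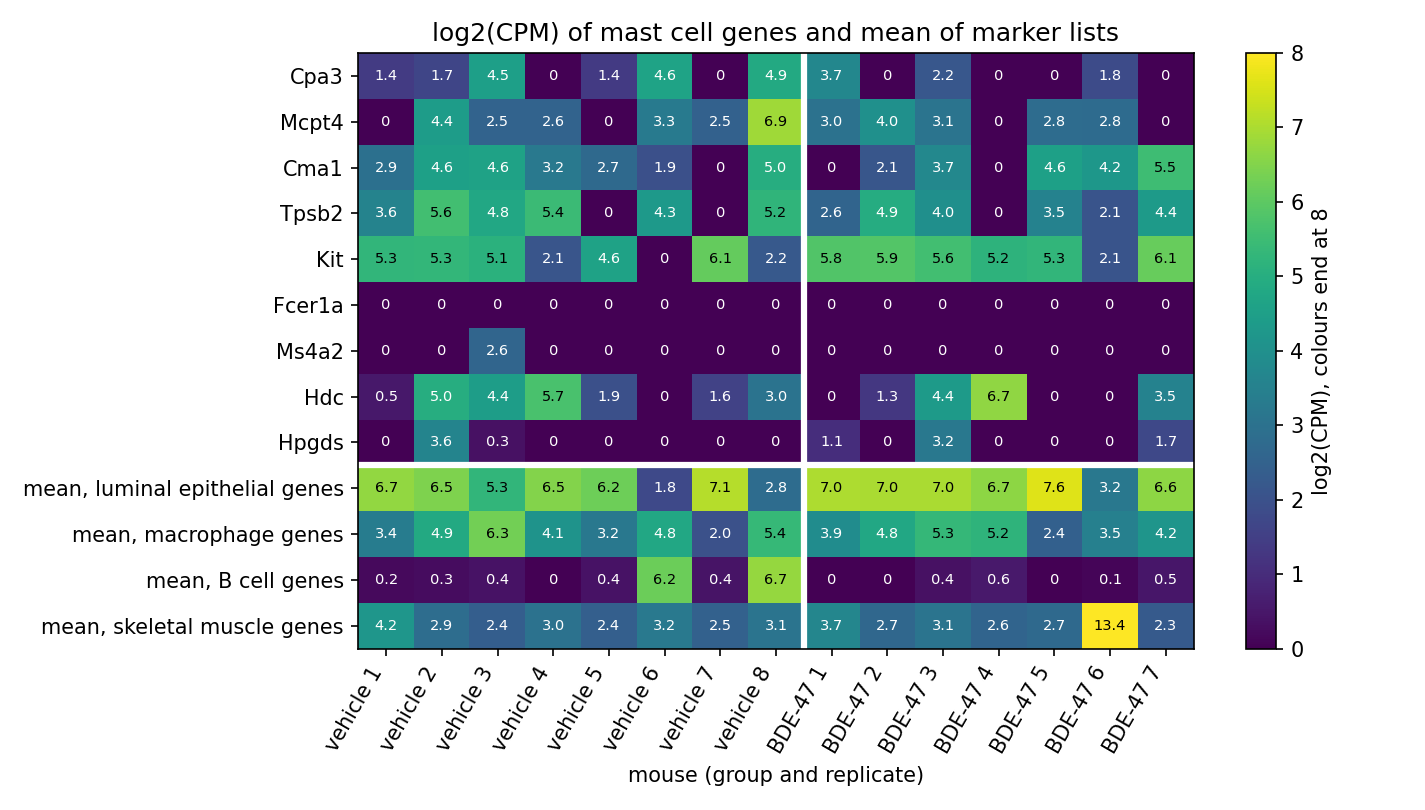
Each cell gives log2(CPM) of a mast cell gene (upper rows) or the mean log2(CPM) of a marker list (lower rows) in 1 mouse (columns, 8 vehicle and 7 BDE-47), with colours that end at 8. The protease row values are at 0 together in BDE-47 replicate 4, and Kit is low in vehicle replicates 4, 6 and 8 and BDE-47 replicate 6, of which the last 3 also have low luminal epithelial genes.

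How far the protease genes were high in the same mice was described by correlation over the 15 mice, with permutation p values from 100000 resamples, adjusted over 21 relations among the 7 members above the floor in more than 1 mouse. The closest pair was Cma1 and Tpsb2 (Pearson's r = 0.63, permutation p = 0.013, adjusted p = 0.283; Spearman's rho = 0.54, permutation p = 0.040, adjusted p = 0.391). Leaving out the 2 mice farthest from the Cma1 median gave r = 0.53, and r was 0.73 in vehicle and 0.56 in BDE-47 mice. Mcpt4 and Tpsb2 followed (r = 0.55, permutation p = 0.036, adjusted p = 0.375; rho = 0.58, permutation p = 0.027, adjusted p = 0.391; r = 0.58 without the 2 farthest mice, 0.57 within vehicle and 0.47 within BDE-47). Cpa3 had r = 0.49 to Mcpt4 (permutation p = 0.065, adjusted p = 0.447), 0.30 to Tpsb2 (permutation p = 0.280, adjusted p = 0.588) and 0.14 to Cma1 (permutation p = 0.626, adjusted p = 0.722). Mcpt4 and Cma1 had r = 0.23 (permutation p = 0.411, adjusted p = 0.722), with 0.45 within vehicle and −0.028 within BDE-47. The r of Cpa3 and Mcpt4 was 0.22 without vehicle replicates 6 and 8, 0.51 within vehicle and 0.40 within BDE-47. To Tpsb2 and Cma1 the r of Cpa3 was 0.44 and 0.50 within vehicle mice, and −0.11 and −0.32 within BDE-47 mice. None of the 21 relations passed the adjustment. All points share the floor at 0 and 1 library per mouse, and each value at 0 in both genes adds to r; Cma1 and Tpsb2 were above the floor together in 11 mice and at 0 together in 2.

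**Figure D3:**
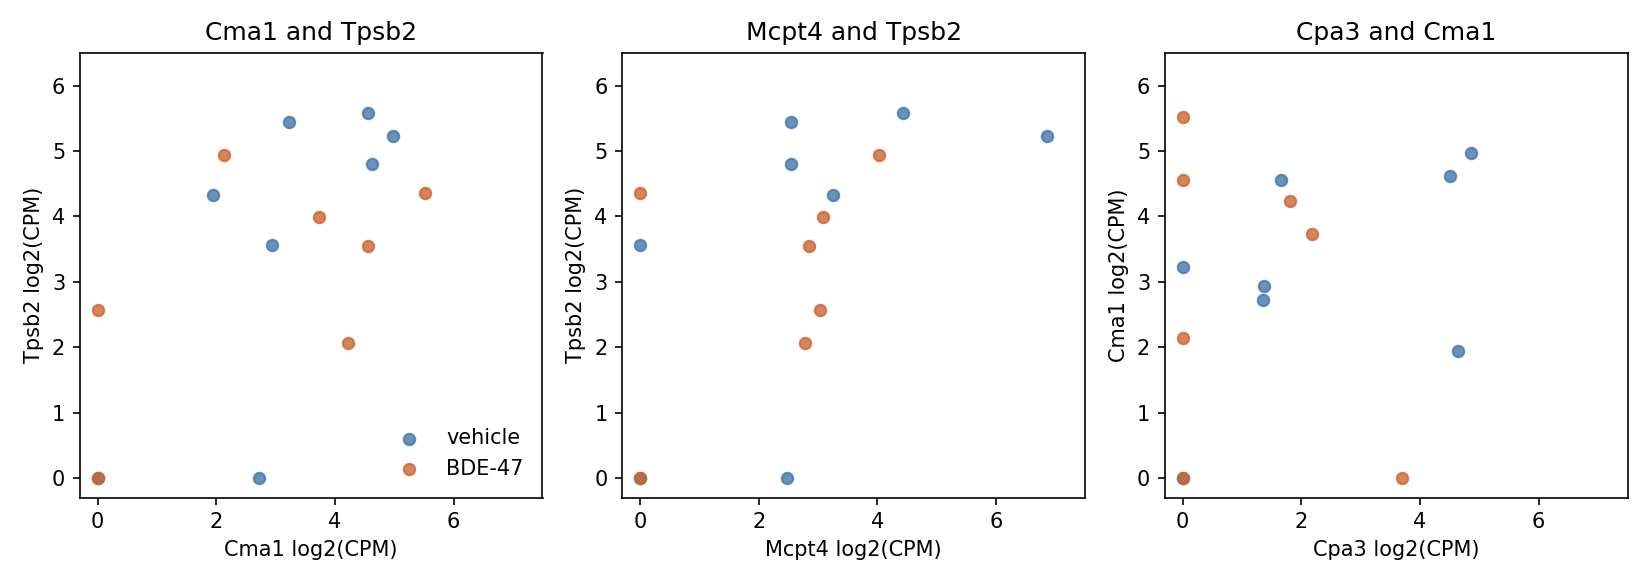
Each point is 1 mouse (vehicle blue, BDE-47 orange), with log2(CPM) of 1 protease gene on each axis. Cma1 and Tpsb2 have r = 0.63 and Mcpt4 and Tpsb2 r = 0.55 over 15 mice, while Cpa3 and Cma1 have r = 0.14, with 4 BDE-47 mice at Cpa3 of 0 whose Cma1 runs from 0 to 5.52.

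Likeness to other genes was measured by r with each of the genes that passed the filter. Among 9510 other genes, Tpsb2 ranked 71st for Cma1 and Cma1 ranked 214th for Tpsb2; Tpsb2 ranked 330th for Mcpt4, and Mcpt4 ranked 763rd for Cpa3. Other protease pairs ranked far lower: for Cpa3, Tpsb2 was 2237th and Cma1 3968th, and for Mcpt4, Cma1 was 2440th. The 10 genes most like the mean log2(CPM) of the 4 proteases were Nup62, Fam129a, Lbh, Ccl8, Krtcap2, Taf5l, Scaf8, Cers6, Sdc3 and Plekho2, with r of 0.86 down to 0.80 over the 15 mice. The 4 proteases, which make up the mean, were left out of this ranking. The 10 were picked as the highest r among the remaining genes over 15 points and are given as a description. Of the 10, Ccl8 (r = 0.82), a chemokine gene, and Krtcap2 (r = 0.81) were above the floor in all 15 mice.

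Kit behaved apart from the proteases. In vehicle replicates 1 to 8 its log2(CPM) was 5.25, 5.31, 5.11, 2.10, 4.61, 0, 6.10 and 2.23. BDE-47 replicates 1 to 7 had Kit at 5.82, 5.86, 5.58, 5.16, 5.27, 2.08 and 6.13. All but 1 of the BDE-47 mice lay over 5, while 5 vehicle mice were at 4.61 or above and 3 at 2.23 or below, and the groups overlapped. The Kit difference was 1.29 (SE 0.83, 95% interval −0.39 to 2.98; limma adjusted p = 0.982; exact permutation p = 0.188). Without vehicle replicates 6 and 8 it was 0.38 (limma adjusted p = 0.996), and without these and BDE-47 replicate 6, a choice made after the values were seen, it was 0.89 (limma adjusted p = 0.968).

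The mice low in Kit were largely the mice low in luminal epithelial genes: Kit was 0, 2.23 and 2.08 in vehicle replicates 6 and 8 and BDE-47 replicate 6, whose luminal mean log2(CPM) was 1.77, 2.84 and 3.22. Vehicle replicate 4 was the exception, with Kit at 2.10 and a luminal mean of 6.51. In the other 11 mice Kit was 4.61 to 6.13 and the luminal mean 5.28 to 7.60. Vehicle replicates 6 and 8 and BDE-47 replicate 6 were also the lowest in adipocyte genes. Their mean log2(CPM) of that list was 3.77, 4.69 and 7.26, against 7.79 to 9.84 in the other 12 mice. For endothelial genes it was 1.80, 3.20 and 2.55, against 3.15 to 5.42, so that vehicle replicate 8 lay within the range of the others. In the 12 mice without vehicle replicates 6 and 8 and BDE-47 replicate 6, Kit had r = 0.27 with the luminal mean (permutation p = 0.296, adjusted p = 0.820). Its rho was 0.55 (permutation p = 0.068, adjusted p = 0.632), and without the 2 mice farthest from the luminal median r was 0.55. With keratinocyte genes r was 0.61 (permutation p = 0.046, adjusted p = 0.650) and rho 0.42 (permutation p = 0.175, adjusted p = 0.73). Without the 2 mice farthest from the keratinocyte median that r was 0.21. Adjustment was over 91 relations chosen after the values were seen. Over all luminal genes, 8 of 8 tested had a higher mean in BDE-47 (median difference 1.11, none with an unadjusted p under 0.05, against 49.1% of all genes higher). With vehicle replicates 6 and 8 left out, 3 of the 8 were higher and 5 lower (median difference −0.12, against 46.6% of all genes higher). Of the 8 genes, 6 were above the floor in every mouse, and the summed level of the list was 43.3 to 2056 CPM in vehicle and 155.1 to 2730 CPM in BDE-47 mice. The part of luminal cells in the Kit difference was not tested. Against the proteases Kit had r of −0.46 (Cpa3, permutation p = 0.085, adjusted p = 0.447), −0.33 (Mcpt4, permutation p = 0.230, adjusted p = 0.588), −0.23 (Tpsb2, permutation p = 0.412, adjusted p = 0.722) and −0.14 (Cma1, permutation p = 0.621, adjusted p = 0.722), and that of Cpa3 was 0.02 without vehicle replicates 6 and 8.

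**Figure D4:**
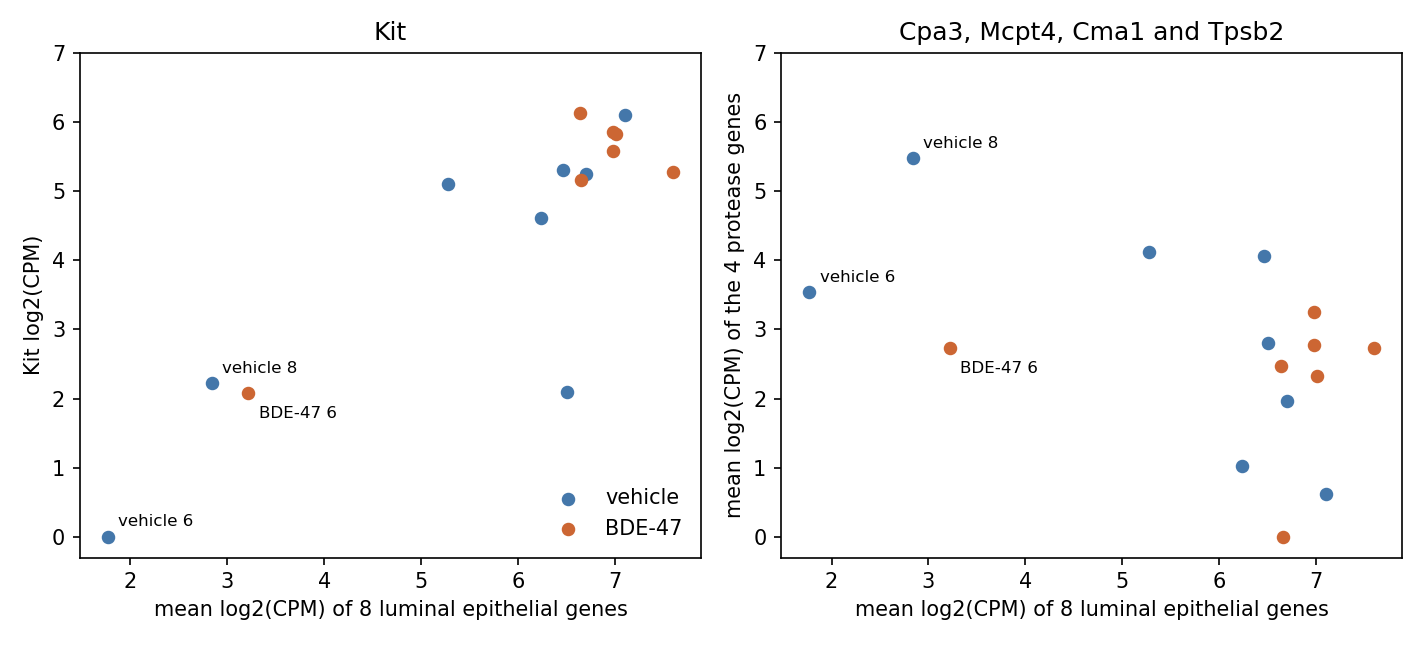
Each point is 1 mouse (vehicle blue, BDE-47 orange), with the mean log2(CPM) of 8 luminal epithelial genes on the horizontal axis and, on the vertical axes, log2(CPM) of Kit (left) or the mean log2(CPM) of Cpa3, Mcpt4, Cma1 and Tpsb2 (right). The 3 labelled mice have Kit at 2.23 or less, while their protease means, 3.54, 5.48 and 2.72, lie within or above those of the other mice.

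The chains of the IgE receptor were the least detected members. Fcer1a was listed at 0 in all 15 mice, so each mouse had fewer reads of it than its floor. Ms4a2 was above the floor in vehicle replicate 3 alone, at 2.61 (101 reads), the mouse with 8 of the 9 members above the floor. The gamma chain gene Fcer1g, which other Fc receptors of myeloid cells also use, was above the floor in 8 of 8 vehicle and 5 of 7 BDE-47 mice, with a difference of −1.83 (SE 1.05; limma adjusted p = 0.982). It was highest in BDE-47 replicate 4 (7.13), in which none of the 4 proteases was above the floor.

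Hdc, the enzyme that makes histamine, was 0.52, 4.98, 4.45, 5.69, 1.95, 0, 1.59 and 3.05 in vehicle replicates 1 to 8. The BDE-47 mice had 0, 1.29, 4.35, 6.67, 0, 0 and 3.54 in replicates 1 to 7. Hdc thus spread over the whole scale in either group, with 7 of 8 vehicle and 4 of 7 BDE-47 mice above the floor (Fisher's exact test, two-sided, unadjusted p = 0.282). The Hdc difference was −0.51 (SE 1.17, 95% interval −2.87 to 1.84; limma adjusted p = 0.994; exact permutation p = 0.673), and on linear CPM its sign turned (4.29 CPM higher in BDE-47; exact permutation p = 0.833). Its highest level, 1975 reads in BDE-47 replicate 4, fell in the mouse with no protease above the floor, and vehicle replicate 4, the next highest in Hdc, was the only mouse with the basophil protease gene Mcpt8 (3.82). Against the 4 proteases the r of Hdc ran from −0.17 to 0.14, none of them past the adjustment (adjusted p of 0.722 to 0.822, permutation tests). Within groups the r with Mcpt4, Cma1 and Tpsb2 was 0.34, 0.58 and 0.51 in vehicle mice and −0.68, −0.20 and −0.36 in BDE-47 mice. With Cpa3 the r of Hdc was −0.15 in vehicle and −0.34 in BDE-47 mice. The BDE-47 values include replicate 4, highest in Hdc and with all 4 proteases at 0. These differences between groups were not tested.

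Hpgds, which makes prostaglandin D2 in mast cells and also in other myeloid cells, was detected over the floor in 2 of 8 vehicle mice (3.60 in replicate 2 and 0.35 in replicate 3) and 3 of 7 BDE-47 mice (1.06, 3.19 and 1.74 in replicates 1, 3 and 7). These 5 mice also had Tpsb2 above the floor. The groups overlapped, and the difference was 0.36 (exact permutation test, two-sided, p = 0.602).

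**Figure D5:**
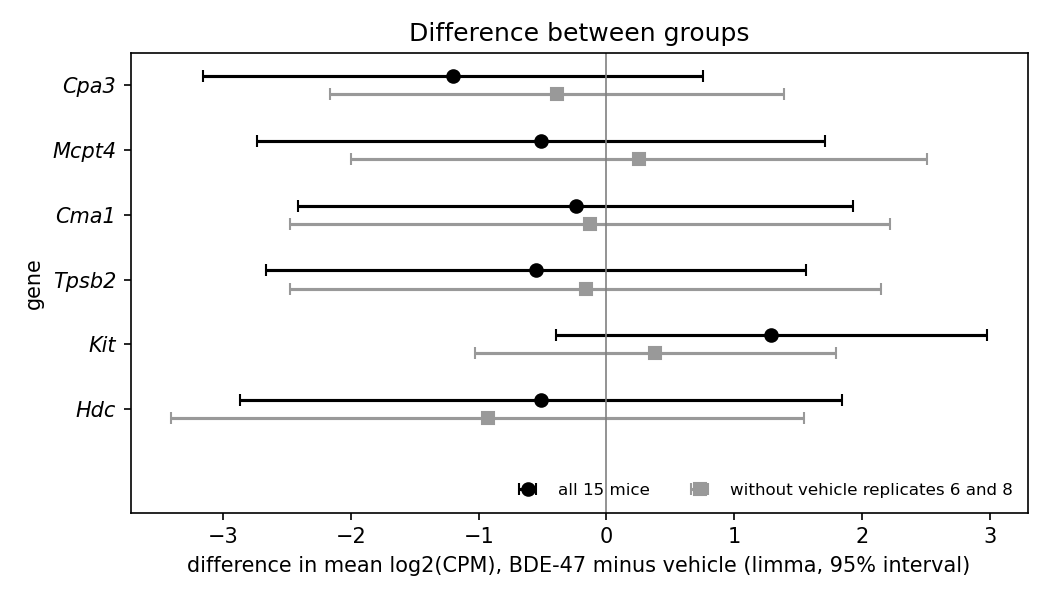
Points give the difference in mean log2(CPM), BDE-47 minus vehicle (horizontal axis), of the 6 members that passed the filter (vertical axis), with 95% limma intervals, for all 15 mice (black) and without vehicle replicates 6 and 8 (grey). All 12 intervals include 0, and the Cpa3 and Kit differences of −1.20 and 1.29 come to −0.39 and 0.38 without that pair of mice.

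Beyond the members, 71 genes of 8 lists tied to mast cells by known function were read. Of these, 19 were at 0 in all mice, as were 36212 of all 52526 genes. The filter was passed by 28, of which 8 had a higher and 20 a lower mean in BDE-47, against 50.9% of all genes tested lower. The median difference of the 28 was −0.23, against −0.02 over all genes tested. None of the 28 had an adjusted p under 0.05, and 1, with a lower mean, had an unadjusted p under 0.05. Of all genes tested, 2.72% were lower and 1.93% higher at that unadjusted level. The 1 gene of the lists was Csf2rb, the beta chain shared by receptors for IL-3, IL-5 and GM-CSF and used by many myeloid cells. Its difference was −2.29 (SE 0.81, limma unadjusted p = 0.0071, adjusted p = 0.982). Its log2(CPM) ran from 2.95 to 7.65 in vehicle and from 0 to 5.48 in BDE-47 mice, and without vehicle replicates 6 and 8 its difference was −1.76. By size, 2 of the 28 were more than 2-fold higher (13% of all genes) and 8 more than 2-fold lower (13.2% of all genes). The 28 genes split, when vehicle replicates 6 and 8 were left out, into 10 higher and 18 lower (46.6% and 53.4% of all genes). Past 2-fold were 1 and 5 (12.8% and 14.2% of all genes). In those mice 2 of the 28, Csf2rb (lower) and Pla2g4a (higher), had an unadjusted limma p under 0.05, against 429 of all 9511 genes tested. None of the 28 had an adjusted p under 0.05.

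Of the 9 other mast cell protease genes, Mcpt1, Mcpt2, Mcpt9, Ctsg and Prss34 were at 0 in all mice, and none passed the filter. Among granule matrix and amine storage genes 3 of 5 tested were higher and 2 lower (49.1% and 50.9% of all genes). On the higher side Tph1, a serotonin synthesis enzyme (0.86), and Ext1, a heparan sulfate polymerase (0.63), came first. On the lower were Srgn, the serglycin core protein that holds proteases in the granule (−0.49), and Cd63 (−0.16). Srgn is shared with other blood cells and was highest in vehicle replicate 8 (8.10); without vehicle replicates 6 and 8 its difference turned to 0.54, that of Cd63 was −0.025 and that of Tph1 0.39.

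Among surface receptor genes Mrgprb2, the mast cell receptor for basic secretagogues, Cd200r3 and Siglecf were at 0 in all mice, and of the 2 tested Enpp3 had a difference of 0.72 (0.18 without vehicle replicates 6 and 8) and Csf2rb that given above. Of 13 IgE receptor signalling genes 8 were tested and all 8 had a lower mean in BDE-47, none with an unadjusted p under 0.05, against 50.9% of all genes lower, with Lat2, an adaptor (−2.003), and Fcer1g (−1.83) first. In the 13 mice other than vehicle replicates 6 and 8, 6 of the 8 were lower (53.4% of all genes), Lat2 at −1.37, Fcer1g at −1.17 and Syk at −0.094 in place of −1.04, while Lyn (0.71) and Plcg2 (0.48) turned higher. B cells are known to use several genes of this list, Lyn, Syk, Lat2 and Plcg2 among them.

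Of the transcription factor genes 1 of 5 tested was higher, Stat5b (1.33), and 4 were lower (49.1% and 50.9% of all genes). Among the lower, Spi1 (−1.38, and −0.50 without vehicle replicates 6 and 8) and Meis2 (−0.54) came first. Gata1 was at 0 in all mice. In the eicosanoid list Pla2g4a, which frees arachidonic acid, was higher (1.84, and 2.40 without vehicle replicates 6 and 8). The other 3 of 4 tested were lower (50.9% of all genes). First among these were Alox5ap, the 5-lipoxygenase activating protein (−2.29), and Ptgs1 (−1.53). Without vehicle replicates 6 and 8 they were at −1.75 and −1.46. Kitl, the ligand of KIT, was above the floor in all 15 mice and differed by 0.03 (−0.57 without vehicle replicates 6 and 8), and Il33, an alarmin, by −0.65. The cytokine genes Il3, Il4, Il9 and Il13 were at 0 in all mice. So were the mediator receptor genes Hrh2, Hrh4, Ptgdr, Ptgdr2 and Cysltr2, while Hnmt, which breaks down histamine, differed by 0.78 (0.082 without vehicle replicates 6 and 8) and F2rl1, a receptor cleaved by tryptase, by −0.04. The limma adjusted p of each of these genes was over 0.9 (0.982 to 1.00).

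Markers of cells that share genes with mast cells were read beside the members. Of 6 basophil genes, Prss34, Cd200r3, Il4 and Il6 were at 0 in all mice, and Mcpt8 was above the floor in 1 mouse. The summed level of the list (0 to 78.5 CPM in vehicle and 0 to 33.9 CPM in BDE-47 mice) came in all other mice from Itga2b, which is also known as a platelet gene. Of 6 eosinophil genes, Epx, Ear1, Siglecf and Ccr3 were at 0 in all mice (sums of 0 to 9.59 and 0 to 1.72 CPM). Melanocytes also use Kit, and of 5 melanocyte genes Tyrp1 and Tyr were at 0 in all mice (sums of 0 to 5.79 and 0 to 9.04 CPM). Macrophage genes were present in every mouse (sums of 102.3 to 913.7 and 121.8 to 519.5 CPM), with 5 of 7 tested lower in BDE-47 (50.9% of all genes) and none with an unadjusted p under 0.05. Leaving out vehicle replicates 6 and 8, only 3 of the 7 were lower (53.4% of all genes) and 4 higher, among them Cd68 (1.29).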

How the data were processed

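RNA was sequenced from mammary tissue of 15 mice, 1 library each, grouped by the treatment label. The labels name QuantSeq 3′ FWD libraries, STAR 2.5.3a and GRCm38; the authors mapped to the RefSeq mouse genome and deposited log2(CPM), in which genes under 1 CPM stand at 0. The counting tool and annotation release are not given in the sources used here. Of 52636 entries per mouse, 110 repeated names were dropped, keeping the row with the highest mean. Depth came from the spacing of low values (100% whole reads within 0.02).

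Differences were tested on log2(CPM) with limma 3.58.1 (trend) in R 4.3.3 for genes at 1 CPM or more in at least 7 mice, and by exact permutation (6435 splits) and Fisher's exact test for 16314 genes, each with Benjamini-Hochberg adjustment over all genes tested. The tests were checked on simulated data. Correlations used scipy 1.17.1. RefSeq promoter sequences came from GRCm38.p6. Named genes were all members, up to 2 with the largest difference per direction in each list, absent defining genes, and the 10 most like the protease mean; Csf2rb, Mcpt8, Tpsab1 and Ccl8 were also singled out for their values. The members and lists were chosen with earlier results of these data known. Alternatives covered pseudocounts of 1 and 0.1, filters, scaling, covariates and left-out mice. The mice are separate animals, with no technical replicates.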

Additional observations from a re-analysis of the deposited data

Results flagged for a closer look

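Within a group, 3 values lay far from the rest by the gap to the nearest mouse over the group's range. The measure flags about 1 in 20 groups by chance where values are normally distributed. For values floored at 0 that rate does not hold. Kit in BDE-47 replicate 6 was 2.08, with the next lowest mouse at 5.16 (ratio 0.760). That mouse is the one with skeletal muscle genes. Ms4a2 in vehicle replicate 3 was 2.61 with all other vehicle mice at 0 (ratio 1), and Hpgds in vehicle replicate 2 was 3.60 with the next at 0.35 (ratio 0.904). In the last 2 cases nearly all other values were at the floor, where a single value above it is enough to be far.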

How the results depend on the processing

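Of 389 alternative values computed, 362 were counted as unchanged, 25 turned direction and 2 counts moved by over 1.5 times. Unchanged meant the same direction and side of the threshold for tests, the same direction alone for correlations, and a change within 1.5 times for counts of genes. A value of 0 was not counted as a turn. The count of genes past limma's threshold was 0 under every alternative, each left-out mouse included, except without vehicle replicates 6 and 8 and BDE-47 replicate 6 together (chosen after seeing the data), where 2 genes were called, Wfdc18 (1.78, adjusted p = 0.031) and Chchd2 (−1.48, adjusted p = 0.049), neither a member. Genes past 2-fold numbered 2497, and 4093 with log2(CPM + 0.1), which widens distances to the floor; leaving out 1 mouse gave 2421 to 2821. No member passed limma or the permutation test in any alternative run.

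With 1 mouse left out, differences ran from −1.64 to −0.84 (Cpa3), −0.90 to 0.075 (Mcpt4), −0.69 to 0.24 (Cma1), −1.07 to −0.039 (Tpsb2), 0.74 to 1.80 (Kit), −1.25 to −0.096 (Hdc), −0.37 to 0 (Ms4a2) and −0.027 to 0.81 (Hpgds). Direction turned for Mcpt4 without vehicle replicate 8 (0.075), for Cma1 without vehicle replicate 8 (0.022) or BDE-47 replicate 1 or 4 (0.24), and for Hpgds without BDE-47 replicate 3. Without vehicle replicates 6 and 8 Mcpt4 was 0.25; without the 3 mice together Mcpt4 was 0.17 and Tpsb2 0.0034. On linear CPM, Cma1 (1.74) and Hdc (4.29) turned. The r of Cpa3 within BDE-47 mice was −0.32 with Cma1 and −0.11 with Tpsb2, that of Mcpt4 with Cma1 −0.028 and that of Tpsb2 with Kit 0.41; without the 3 mice, r with Kit was 0.12 for Cpa3 and 0.035 for Mcpt4. Median-of-ratios scaling moved the median of all genes from −0.02 to 0.064 and turned no member. The cause of these changes was not tested. Counts over gene lists without vehicle replicates 6 and 8 were added after seeing the data.

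Replicate numbers are shared by the groups, and the labels name no shared litter, batch or day. The deviations of same-numbered mice had correlations of −0.018 to 0.053, all under the 0.1 required here to treat them as pairs, although 4 of 7 BDE-47 mice were closest to their own number, a hint from the data and not from the design. The fit with the replicate block, which leaves vehicle replicate 8 without a partner, called 0 genes and gave Mcpt4 0.075 and Cma1 0.022. What limits these results is the spread between mice and the many values at the floor: at 10 to 20 CPM, 28.52% of values were at 0 (the part of depth was not tested), and the 95% intervals of the members span 2-fold changes in at least one direction.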

Other observations

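In the 12 mice without B cell or muscle tissue, the 7 members above the floor in more than 1 mouse were set beside the mean log2(CPM) of 13 marker lists, 91 relations chosen after the values were seen. Tpsb2 and 5 fibroblast genes had the closest relation by rank (Spearman's rho = 0.88, permutation p = 0.00045, adjusted p = 0.041), but not past the adjustment by Pearson's r (0.73, permutation p = 0.0071, adjusted p = 0.242; 0.57 without the 2 farthest mice), and no other relation passed by either measure. By Pearson's r the closest relations were Cpa3 with 5 endothelial genes (r = 0.79, permutation p = 0.0018, adjusted p = 0.162; rho = 0.81, adjusted p = 0.131) and Cma1 with 5 Schwann cell genes (r = 0.73, permutation p = 0.0080, adjusted p = 0.242; rho = 0.77, adjusted p = 0.155).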
